A study of Mus musculus with 22 samples.

Results

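Sod1, the gene of its copper chaperone and genes of other superoxide- and peroxide-removing enzymes were followed in Ts1Cje mice and their wild-type (WT) littermates. The tissues were cortex and hippocampus. The 6 genes were taken by symbol and Entrez number, out of 20239 genes with a single symbol on the arrays. They were Sod1 (Entrez 20655), Ccs (12460), Sod2 (20656), Sod3 (20657), Cat (12359) and Gpx1 (14775). All 6 were measured, and no filter on low values was applied.

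The groups were cortex of 6 Ts1Cje and 5 WT mice and hippocampus of the same 6 Ts1Cje and 5 WT mice, all females aged 8 to 10 weeks, with 1 Affymetrix mouse gene 1.0 ST array per animal and region (22 arrays). Ts1Cje mice, used to model Down syndrome, hold the distal end of chromosome 16 in an additional copy that is fused to chromosome 12. The line was kept by crossing Ts1Cje males to C57Bl/6J females. Sod1 lies at the proximal border of the extra segment. As background, the line came out of a gene-targeting experiment at Sod1, and its extra Sod1 copy is generally described as inactivated. A signal of the array covers every transcript that holds the probed sequence, so the copies of Sod1 cannot be told apart here. The comparisons below ask whether the Sod1 difference is matched by the copper chaperone of its protein and by the enzymes that remove peroxide.

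Superoxide dismutases turn superoxide, a by-product of respiration and of oxidases, into hydrogen peroxide, which catalase and glutathione peroxidases then remove. SOD1 works in the cytosol and the space between the mitochondrial membranes with copper and zinc, SOD2 in the mitochondrial matrix with manganese, and SOD3 outside the cell. CCS delivers copper to SOD1. Brain tissue consumes much oxygen, and its neurons express SOD1 at a high level.

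Both arrays of Ts1Cje animal 64 and both of WT animal 60 stood apart from the rest. Their median correlation with the other arrays of the region, across genes, was 0.968 to 0.977 in cortex and 0.985 to 0.991 in hippocampus, against 0.996 to 0.997 and 0.995 to 0.996 for the 9 others. The genotype differences of the 6 genes in each region and most medians of the gene lists are therefore also given without animals 60 and 64. Animal 60 carries a doubtful label, since both of its arrays have WT60 in the title and WT61 in the description, while 61 is the number of a Ts1Cje animal. Both fields call it WT, and the title was used. Its Sod1 signal bears on the cortex result below, and whether its label is right was not tested. Most regional neuron markers stood at a higher percentile of the genes on the arrays of their own region, 9 of 10 for hippocampus and 5 of 8 for cortex. The exceptions were Cpne9 among the hippocampal markers (56.7 in hippocampus and 84.2 in cortex), and among the cortical ones Fezf2 (87.8 and 79.8), Neurod6 (91.4 and 75.6) and Slc17a7 (99.7 in both). Prox1, a marker of dentate granule neurons, stood at percentiles 81.0 to 87.1 on the hippocampus arrays and 43.2 to 60.2 on the cortex arrays. Tbr1, a cortical projection neuron factor, stood at 78.0 to 81.1 in hippocampus and 90.0 to 92.8 in cortex. The values of the regions were set on separate scales (array medians of 6.91 to 6.95 in hippocampus and 7.53 to 7.62 in cortex), so levels were compared only within a region.

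The upstream sequences of Sod1, whose signal differed between the genotypes, and of Sod2, whose signal did not pass the test, are set side by side because both encode superoxide dismutases. The 250 bases before the annotated start are shown 5′ to 3′ from RefSeq (GRCm38.p6, Sod1 at chr16:90220512-90220761 and Sod2 at chr17:13007589-13007838, both plus strand). RefSeq promoter entries were matched for 4 of the 6 genes (Sod1, Sod2, Cat and Gpx1). Capitals mark matches to any of 4 motifs on either strand, namely the GC box (GGGCGG), the CCAAT box (CCAAT), the TATA box (TATAAA) and the core of the antioxidant response element (TGACNNNGC).
Sod1: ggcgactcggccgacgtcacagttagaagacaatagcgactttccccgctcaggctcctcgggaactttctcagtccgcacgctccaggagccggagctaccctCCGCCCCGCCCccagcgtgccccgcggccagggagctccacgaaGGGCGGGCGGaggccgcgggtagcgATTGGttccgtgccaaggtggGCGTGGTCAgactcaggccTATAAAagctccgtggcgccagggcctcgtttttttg
Sod2: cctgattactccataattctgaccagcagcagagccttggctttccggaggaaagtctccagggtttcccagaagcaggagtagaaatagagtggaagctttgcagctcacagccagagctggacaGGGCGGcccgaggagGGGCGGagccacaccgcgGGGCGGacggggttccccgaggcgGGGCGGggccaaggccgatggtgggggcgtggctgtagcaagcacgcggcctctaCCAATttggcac
Sod1 held 4 GC boxes in 2 overlapping pairs, 1 CCAAT box, 1 antioxidant response element core beginning 56 bases before the start and 1 TATA box beginning 37 bases before it. Sod2 held 4 GC boxes and 1 CCAAT box, with no match to the other motifs. Cat held 1 GC box and 4 CCAAT boxes, and Gpx1 held none of the 4 motifs in this window. Of 32851 promoters of this length, 32.7% held a GC box, 33.8% a CCAAT box, 12.4% a TATA box and 10.2% the antioxidant response element core. A match describes letters only.

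Sod1 rose in Ts1Cje hippocampus. Its log2 signal had a lowest, median and highest value of 11.76, 11.83 and 12.12 over the 6 Ts1Cje animals, against 11.52, 10.97, 11.06, 11.03 and 11.04 in WT animals 60, 62, 65, 95 and 98. The groups did not overlap, every Ts1Cje value being higher, and the WT animal nearest to them was animal 60. The means were 11.86 ± 0.128 (SD, n = 6) in Ts1Cje and 11.13 ± 0.226 (SD, n = 5) in WT, a log2 difference of 0.74 ± 0.101 (SE; limma adjusted p = 0.0214 over all genes) or 1.67-fold (95% interval 1.43 to 1.94). Of all genes, 0.104% were called higher in this comparison (adjusted p under 0.05), and 0.38% had every Ts1Cje value above every WT value. In tissue pieces, a changed number of cells and a changed amount of RNA per cell cannot be told apart. The groups lay further apart without animals 60 and 64, at 11.76 to 11.84 in Ts1Cje and 10.97 to 11.06 in WT (1.5% of all genes separated in that direction). The difference was then 0.79 ± 0.0346 (SE; limma adjusted p = 1.1e-05), with 0.153% of all genes called higher. When single animals were left out, the difference stayed between 0.69 and 0.84, but the call was lost without 61, 62, 63, 65, 87, 94, 95, 97 or 98 (adjusted p of 0.0516 to 0.0976).

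In cortex the Sod1 difference had the same sign and missed the threshold with all animals. Ts1Cje signals had a lowest, median and highest value of 12.04, 12.13 and 12.57, against 12.18 in WT animal 60 and 11.28, 11.49, 11.50 and 11.40 in WT animals 62, 65, 95 and 98. Only Ts1Cje animal 64 exceeded every WT value, and the signal of WT animal 60 lay inside the Ts1Cje range. The means were 12.19 ± 0.192 (SD, n = 6) in Ts1Cje and 11.57 ± 0.354 (SD, n = 5) in WT, a log2 difference of 0.62 ± 0.155 (SE; limma adjusted p = 1) or 1.54-fold (95% interval 1.22 to 1.95). No member was called by limma in cortex, and 1 of the 6, Sod1, had an unadjusted p under 0.05. Over all genes limma called 0.00494% there (1 gene), and 263 genes (1.3%) had an unadjusted p under 0.05. In a fit of all 22 arrays that treated animal as a random replicate block, Sod1 was called in cortex (0.62 ± 0.119, SE; limma adjusted p = 0.0303; consensus correlation 0.436). The same fit without the block did not call it (0.62 ± 0.135, SE; limma adjusted p = 0.117). It was also called without animals 60 and 64 (0.70 ± 0.0527, SE; limma adjusted p = 0.000578), when 0.148% of all genes were called higher, and the 5 Ts1Cje values (12.04 to 12.17) exceeded the 4 WT values (11.28 to 11.50), a separation seen in 1.36% of all genes. Over the alternatives other than leaving out single animals, the adjusted p in cortex ran from 9.3e-05 to 1.

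The log2 of 3 copies over 2 is 0.585, which lay inside the 95% interval of the Sod1 difference in cortex (0.28 to 0.96) and in hippocampus (0.52 to 0.96). With animals 60 and 64 left out the intervals were 0.58 to 0.82 in cortex and 0.71 to 0.86 in hippocampus. The value of 0.585 was then at the lower end of the cortex interval and below the hippocampus interval. Whether the array signal scales with transcript number was not tested. Averaged over both regions of each animal, every Ts1Cje value of Sod1 exceeded every WT value, as in 0.316% of all genes. That difference was 0.68 ± 0.126 (SE; limma adjusted p = 0.132), and 0.0593% of all genes were called. It was 0.74 ± 0.0359 without animals 60 and 64 (SE; limma adjusted p = 1.36e-05), with 0.232% of all genes called higher. The Sod1 difference in hippocampus exceeded that in cortex by 0.12 ± 0.191 (SE; limma adjusted p = 1; 95% interval -0.28 to 0.51), which does not show that the regions responded alike. That excess was 0.09 with animals 60 and 64 left out (limma adjusted p = 0.939). The regional differences given here and below come from a fit without the pairing by animal. Their SE and intervals are therefore not those of a paired comparison. For Sod1, 9 alternatives, among them fits with the animal as a block, gave limma adjusted p of 0.909 or more.

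**Figure D1:**
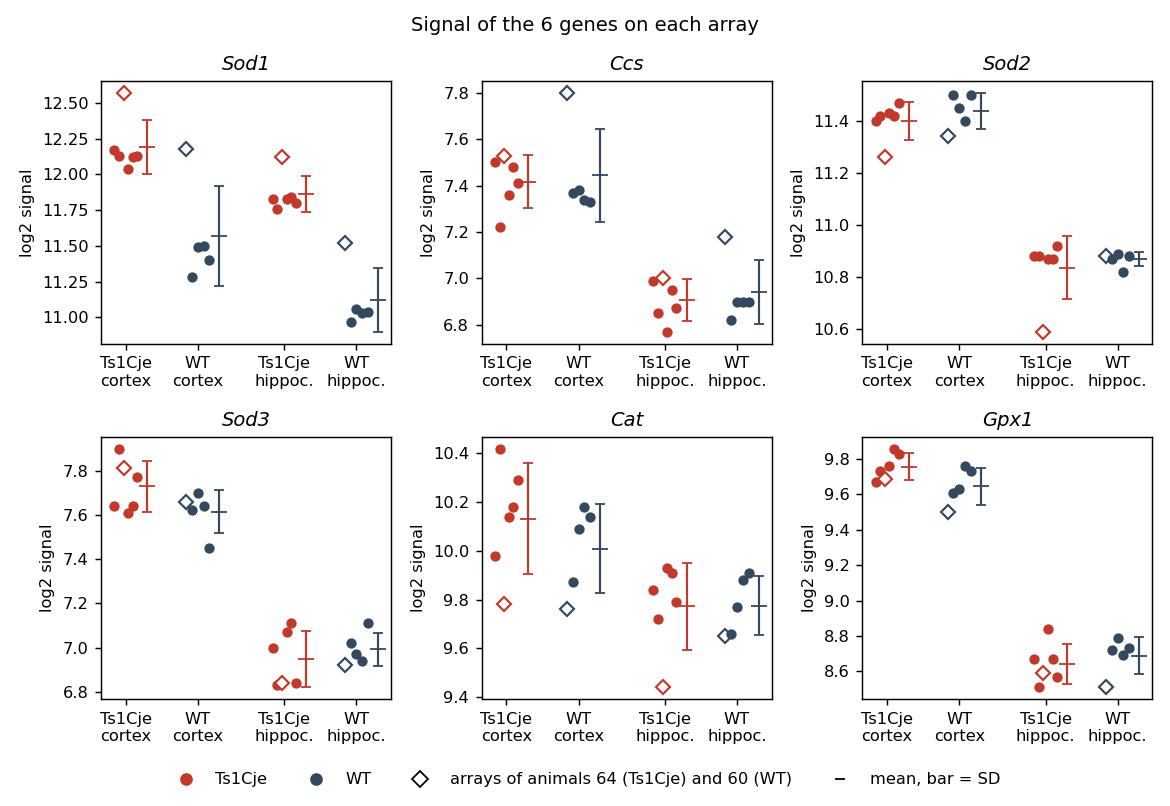
Log2 signal of the 6 genes (1 panel each, separate vertical axes) on every array, with Ts1Cje in red left of WT in dark blue for cortex and then hippocampus. Bars are the mean ± SD (n = 6 Ts1Cje, n = 5 WT), and open diamonds are the arrays of Ts1Cje animal 64 and WT animal 60, which read Sod1 highest in their groups (12.57 and 12.18 in cortex, 12.12 and 11.52 in hippocampus). Levels of different genes or regions are not comparable.

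Ccs, the copper chaperone of SOD1, did not pass the test in either region. In cortex its signal had a lowest, median and highest value of 7.22, 7.45 and 7.53 in Ts1Cje, against 7.80 in WT animal 60 and 7.33 to 7.38 in the 4 other WT animals. WT animal 60 was the highest of all cortex arrays, and the groups overlapped. The log2 difference was -0.03 ± 0.0966 (SE; limma adjusted p = 1; 95% interval -0.24 to 0.19). In hippocampus the values were 6.77, 6.91 and 7.0 in Ts1Cje, against 7.18 in WT animal 60 and 6.82 to 6.90 in the other WT animals. That difference was -0.04 ± 0.0703 (SE; limma adjusted p = 1; 95% interval -0.19 to 0.12). Leaving out animals 60 and 64 gave differences of 0.04 ± 0.058 in cortex and 0.00 ± 0.0488 in hippocampus (SE), with limma adjusted p of 0.924 and 0.989.

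The mitochondrial Sod2 overlapped between genotypes. Its cortex signal had a lowest, median and highest value of 11.26, 11.42 and 11.47 in Ts1Cje, against 11.34, 11.50, 11.45, 11.40 and 11.50 in WT animals 60, 62, 65, 95 and 98. In hippocampus it read 10.59, 10.88 and 10.92 in Ts1Cje, against 10.82 to 10.89 in WT. Ts1Cje animal 64 was the lowest array in both regions. The log2 differences were -0.04 ± 0.0596 in cortex and -0.03 ± 0.0608 in hippocampus (SE; limma adjusted p = 1 in each). Their 95% intervals were -0.17 to 0.09 in cortex and -0.17 to 0.10 in hippocampus. With animals 60 and 64 left out they were -0.03 in cortex and 0.02 in hippocampus.

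The extracellular Sod3 also missed the threshold, with opposite signs in the regions. Cortex signals had a lowest, median and highest value of 7.61, 7.71 and 7.90 in Ts1Cje, against 7.66, 7.62, 7.70, 7.64 and 7.45 in WT animals 60, 62, 65, 95 and 98. In cortex 3 of 6 Ts1Cje values exceeded every WT value. Hippocampus signals were 6.83, 6.92 and 7.11 in Ts1Cje, against 6.92 to 7.11 in WT, and there 3 of 6 Ts1Cje values were under every WT value. The differences were 0.11 ± 0.0736 in cortex (95% interval -0.05 to 0.27) and -0.04 ± 0.0671 in hippocampus (-0.19 to 0.10; SE; limma adjusted p = 1 in each). The same differences stood at 0.11 and -0.04 without animals 60 and 64. The difference between the regional effects of Sod3, hippocampus minus cortex, was -0.16 ± 0.0975 (SE; limma adjusted p = 1), and -0.15 without animals 60 and 64.

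Cat encodes catalase, which breaks down hydrogen peroxide in peroxisomes. Its cortex signals had a lowest, median and highest value of 9.78, 10.16 and 10.42 in Ts1Cje, against 9.76, 9.87, 10.09, 10.18 and 10.14 in WT animals 60, 62, 65, 95 and 98. The groups overlapped, and animals 64 and 60 were the lowest of their groups. In hippocampus Cat read 9.44, 9.81 and 9.93 in Ts1Cje, against 9.65, 9.66, 9.77, 9.88 and 9.91 in the same WT animals. The differences were 0.12 ± 0.121 in cortex (95% interval -0.14 to 0.39) and 0.00 ± 0.0901 in hippocampus (-0.20 to 0.20; SE; limma adjusted p = 1 in each). Animals 60 and 64 left out, they were 0.13 ± 0.0924 in cortex and 0.04 ± 0.0629 in hippocampus (SE).

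Gpx1 encodes the cytosolic glutathione peroxidase, a selenium enzyme that reduces hydrogen peroxide with glutathione. Its cortex signals had a lowest, median and highest value of 9.67, 9.75 and 9.86 in Ts1Cje, against 9.50, 9.61, 9.63, 9.76 and 9.73 in WT animals 60, 62, 65, 95 and 98. In cortex 2 of 6 Ts1Cje values exceeded every WT value. In hippocampus it read 8.51, 8.63 and 8.84 in Ts1Cje, against 8.51, 8.72, 8.79, 8.69 and 8.73 in the same WT animals. The differences were 0.11 ± 0.0669 in cortex (95% interval -0.03 to 0.26) and -0.05 ± 0.0685 in hippocampus (-0.20 to 0.10; SE; limma adjusted p = 1 in each). Without animals 60 and 64 Gpx1 stood at 0.09 in cortex and -0.08 in hippocampus. Its regional effects, hippocampus minus cortex, differed by -0.16 ± 0.0933 (SE; limma adjusted p = 1), and by -0.17 without these animals. Across the 6 genes none was called for a difference between regions, where limma called 0% of all genes and 260 genes had an unadjusted p under 0.05.

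**Figure D2:**
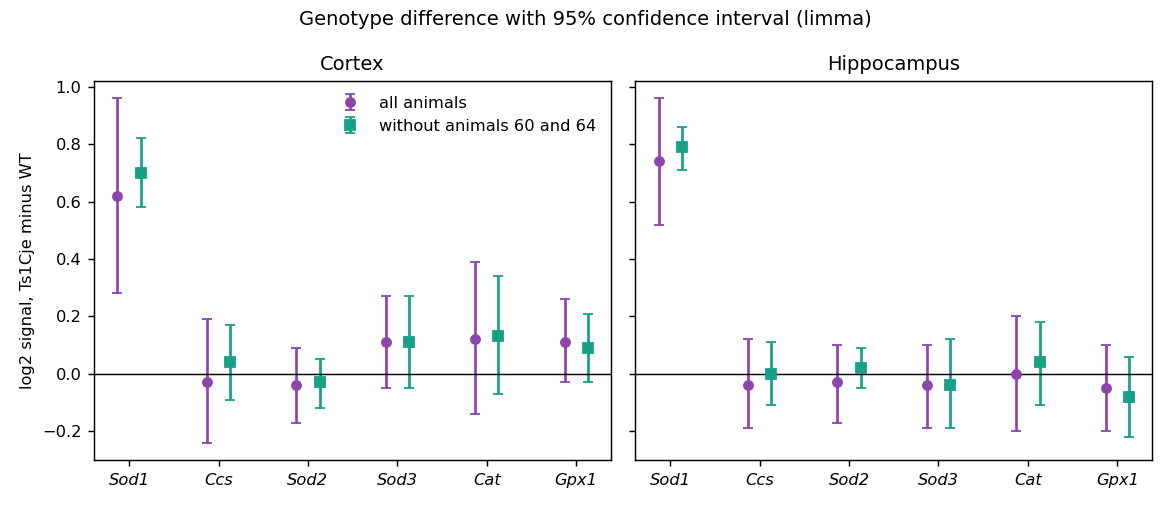
Log2 signal difference, Ts1Cje minus WT, of each gene in cortex (left) and hippocampus (right). Points are limma estimates and bars 95% confidence intervals, with all animals (purple circles, 6 Ts1Cje and 5 WT) and without animals 60 and 64 (green squares, 5 Ts1Cje and 4 WT). The intervals of Sod1 lie above 0 in both regions, and those of the 5 other genes include 0.

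Whether the Sod1 difference was matched by a partner was tested directly, on the Sod1 signal minus the partner signal of each array. All tests of a region use the same Sod1 values of the same animals, so they are not independent of each other. In hippocampus the change of Sod1 exceeded that of every partner. Sod1 minus Ccs was 4.84 to 5.12 in Ts1Cje, against 4.13 to 4.34 in WT, so the groups did not overlap. The excess over Ccs was 0.78 on the log2 scale (exact two-sided permutation p = 0.00216, the smallest that 462 splits can give; adjusted p = 0.00433 over 10 tests). The excess over Sod2 was 0.77, over Sod3 0.78 and over Cat 0.74, each with no overlap between the groups and the same exact p. Over Gpx1 it was 0.78, with 5 of 6 Ts1Cje animals above all WT animals (exact p = 0.00433, adjusted p = 0.00722).

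In cortex the change of Sod1 exceeded that of 4 partners. These tests share the Sod1 values and were adjusted over 10 tests. Adjusted over all genes, the Sod1 difference itself missed the threshold in cortex. Sod1 minus Ccs was 4.67, 4.92, 5.04, 4.67, 4.63 and 4.71 in Ts1Cje animals 61, 63, 64, 87, 94 and 97, against 4.39, 3.91, 4.11, 4.16 and 4.07 in WT animals 60, 62, 65, 95 and 98. The groups did not overlap, although WT animal 60 lay within the Ts1Cje range for Sod1 alone. That animal also read high for Ccs (7.80, against 7.33 to 7.38 in the other WT animals), which lowers its Sod1 minus Ccs value. The excess over Ccs was 0.65 (exact two-sided permutation p = 0.00216, adjusted p = 0.00433). It was 0.66 over Sod2 and 0.51 over Sod3 (exact p = 0.0195 and adjusted p = 0.0244 for each), and 0.51 over Gpx1 (exact p = 0.0346, adjusted p = 0.0385). In these 3 pairs only 1 of 6 Ts1Cje values exceeded every WT value. Over Cat it was 0.50 and missed the threshold (exact p = 0.0952, adjusted p = 0.0952), which it passed when animal 60 alone was left out (0.71, exact adjusted p = 0.00952). All 10 differences without animals 60 and 64 (cortex 0.57 to 0.73, hippocampus 0.75 to 0.87) had the smallest exact p that 126 splits can give (0.00794, adjusted p = 0.00794). The cortex calls over Sod2 and Sod3 were lost without animal 64 (adjusted p = 0.0595 in exact tests). The call over Gpx1 was lost without 61, 62, 63, 64, 65, 95, 97 or 98 (up to 0.0899).

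**Figure D3:**
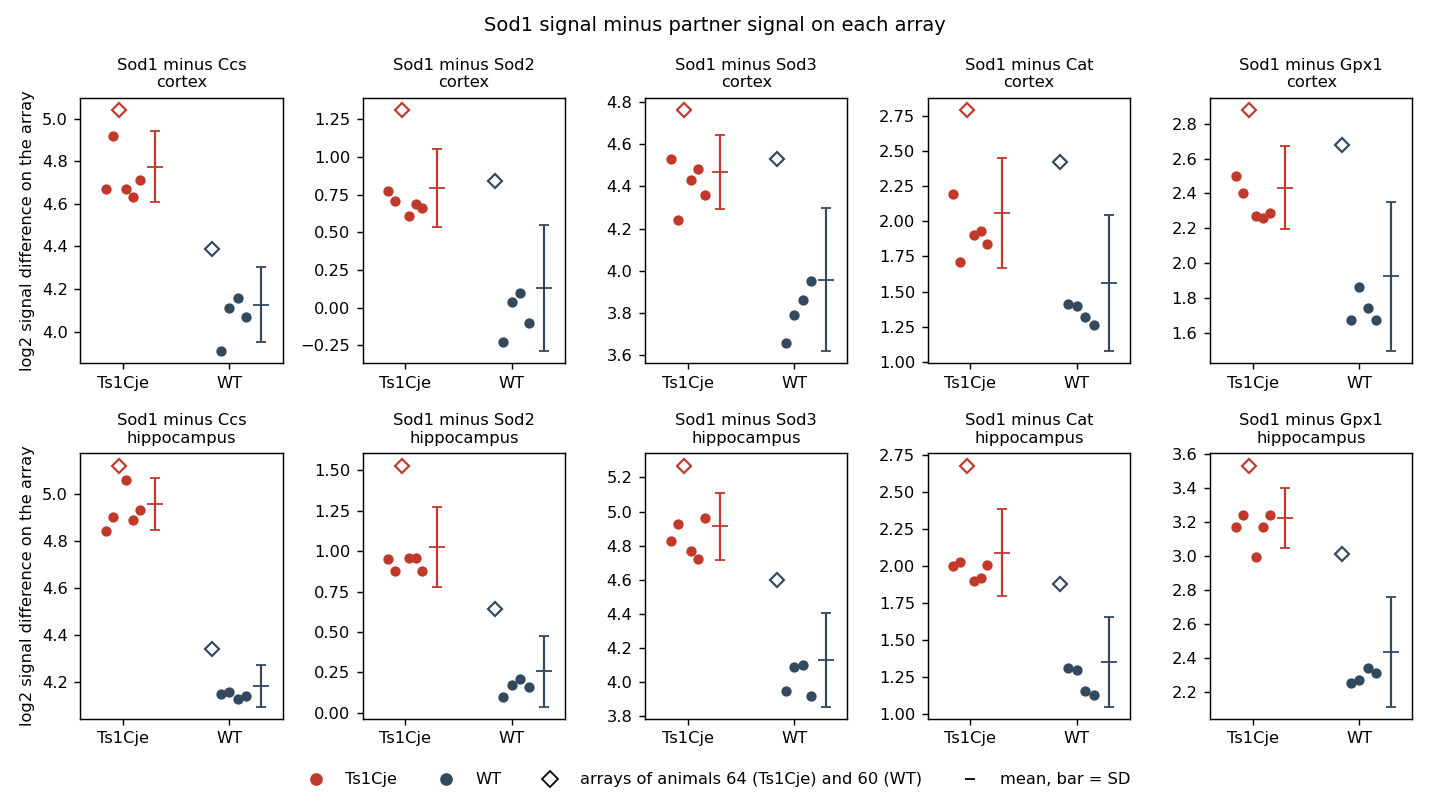
Sod1 log2 signal minus partner log2 signal on each array, for 5 partners (columns) in cortex (top) and hippocampus (bottom), Ts1Cje left of WT, each panel with its own vertical axis. Bars are mean ± SD (n = 6 Ts1Cje, n = 5 WT) and open diamonds the arrays of animals 64 and 60. For Ccs the groups are apart in both regions, with 4.63 to 5.04 in Ts1Cje and 3.91 to 4.39 in WT cortex.

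Of the other genes of the pathway, in 6 lists, limma called 0 in either region. Over all genes it called 0.00494% in cortex and 0.114% in hippocampus, and a count of 0 in lists of this size is near those shares. Among 17 measured of 19 listed peroxide-removing enzymes, 13 were above 0 in cortex (median log2 difference 0.058, against -0.003 for all genes) and 6 in hippocampus (median -0.019, against -0.006 for all genes). With animals 60 and 64 left out, 10 were above 0 in cortex (median 0.009) and 9 in hippocampus (median 0.008). Gpx4, which repairs oxidized membrane lipids, stood at 0.10 ± 0.0707 in cortex and -0.08 ± 0.0848 in hippocampus (SE). The secreted Gpx3 stood at 0.09 ± 0.145 and -0.02 ± 0.0809, and Gpx7 of the endoplasmic reticulum at -0.07 ± 0.131 and -0.05 ± 0.0765 (cortex and then hippocampus, SE). An unadjusted p under 0.05 was found for 0 of the 17 in cortex and 1 in hippocampus, near the shares over all genes (1.3% in cortex and 3.71% in hippocampus).

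Copper handling genes cover import, export and carriage of the metal that CCS passes on, and not only its supply to CCS. Of 14 measured, 11 were above 0 in cortex (median 0.072) and 5 in hippocampus (median -0.019). Without animals 60 and 64 the hippocampus count was 8 and its median 0.009. The copper chaperone Atox1 stood at 0.04 ± 0.0734 in cortex and -0.02 ± 0.0468 in hippocampus, and the copper importer Slc31a1 at 0.25 ± 0.239 and -0.09 ± 0.0879 (SE). Atp7a, a copper-exporting pump, stood at 0.07 ± 0.192 in cortex and -0.05 ± 0.11 in hippocampus (SE).

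Genes of superoxide and peroxide sources were spread around 0, with 8 of 17 measured (20 listed) above 0 in cortex (median -0.005) and 7 of 17 in hippocampus (median -0.020). Without animals 60 and 64 the cortex median was 0.004. The NADPH oxidase subunits Cyba and Cybb had cortex differences of -0.01 ± 0.0935 for Cyba and 0.08 ± 0.0834 for Cybb (SE). Their hippocampus differences were -0.13 ± 0.0684 for Cyba and -0.03 ± 0.104 for Cybb (SE). Xdh, which encodes xanthine oxidoreductase, stood at 0.09 ± 0.118 in cortex and 0.11 ± 0.0868 in hippocampus (SE). Regulators and targets of the antioxidant response numbered 7 of 14 above 0 in cortex (median 0.002) and 1 of 14 in hippocampus (median -0.061). Nfe2l2, which encodes the activator NRF2, stood at 0.19 ± 0.191 in cortex and -0.03 ± 0.0763 in hippocampus. Its inhibitor Keap1 stood at 0.02 ± 0.0564 and -0.08 ± 0.0442, and the target Hmox1, a heme oxygenase, at 0.03 ± 0.0525 and -0.01 ± 0.0571 (cortex and then hippocampus, SE).

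Selenoprotein synthesis, on which Gpx1 depends, had 6 of 8 genes above 0 in cortex (median 0.029) and 2 of 8 in hippocampus (median -0.015). Sephs2, Secisbp2 and Sepsecs lay between 0.00 and 0.03 in cortex and between -0.07 and -0.02 in hippocampus. Peroxisomal genes, whose products import and surround catalase, had 9 of 12 measured (14 listed) above 0 in cortex (median 0.035) and 4 of 12 in hippocampus (median -0.031). The import receptor Pex5 stood at 0.01 ± 0.0602 in cortex and 0.02 ± 0.0557 in hippocampus, its docking partner Pex14 at -0.06 ± 0.0779 and -0.10 ± 0.0431, and Pex13 at 0.07 ± 0.168 and -0.03 ± 0.103 (SE). With animals 60 and 64 left out limma again called 0 genes of these 6 lists in either region. The medians in cortex and hippocampus were then 0.007 and -0.066 for regulators and targets of the antioxidant response, 0.043 and -0.025 for selenoprotein synthesis and 0.037 and -0.004 for peroxisomal genes.

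Markers of cell types that carry these enzymes were read on the same arrays, and their part in the values above was not tested. Astrocyte markers were above 0 for 2 of 10 genes in cortex (median -0.024) and 0 of 10 in hippocampus (median -0.106, and -0.080 without animals 60 and 64). Their mean signal in hippocampus was 9.48 to 9.67 in Ts1Cje and 9.68 to 9.73 in WT, so the ranges nearly touched. Of single genes, 0.257% had every Ts1Cje value below every WT value there, and no such share is given for means of lists. Markers of mural cells and perivascular fibroblasts, where Sod3 is known to be expressed, had medians of 0.060 in cortex (9 of 10 above 0) and -0.091 in hippocampus (1 of 10). Their mean signals were 8.49 to 8.78 in Ts1Cje and 8.39 to 8.61 in WT cortex, and 8.11 to 8.41 in Ts1Cje and 8.31 to 8.50 in WT hippocampus. Erythrocytes are rich in catalase and GPX1, and of their markers 5 of 10 were measured, with medians of 0.047 in cortex (-0.024 without animals 60 and 64) and 0.079 in hippocampus. Their mean signals were 6.70 to 7.40 in Ts1Cje and 6.75 to 6.95 in WT cortex, and 6.29 to 6.58 in Ts1Cje and 6.29 to 6.44 in WT hippocampus. Oligodendrocyte markers had medians of 0.091 in cortex and 0.070 in hippocampus, with 8 of 9 genes above 0 in each region, and 0.091 was the largest cortex median in size among the 9 marker lists. Endothelial markers had medians of 0.043 in cortex (7 of 10 above 0) and -0.028 in hippocampus (2 of 10), and microglial markers 0.062 (6 of 9) and -0.040 (2 of 9). Choroid plexus markers had medians of -0.084 in cortex (2 of 9) and -0.216 in hippocampus (2 of 9). Cortical neuron markers had medians of 0.024 in cortex and -0.013 in hippocampus, and hippocampal neuron markers 0.008 and -0.092. With animals 60 and 64 left out, the cortex medians were 0.064 for mural, 0.054 for oligodendrocyte, 0.044 for endothelial, 0.052 for microglial, -0.129 for choroid plexus, 0.004 for cortical neuron and 0.028 for hippocampal neuron markers. The hippocampus medians were then -0.143 for mural, 0.081 for oligodendrocyte, -0.035 for endothelial, -0.016 for microglial, -0.142 for choroid plexus, -0.047 for cortical neuron and -0.084 for hippocampal neuron markers. No marker was called by limma in either region.

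Along chromosome 16, the 6 nearest measured genes distal to Sod1 were above 0 in 5 of 6 cases in cortex and 6 of 6 in hippocampus, and the 6 proximal ones in 1 of 6 and 2 of 6. The 6 nearest measured genes on the proximal side (Krtap6-2, Krtap8-1, Krtap7-1, Krtap11-1, Tiam1 and Gm10789) ranged from -0.12 to 0.08 in cortex and from -0.09 to 0.11 in hippocampus, and none was called. The keratin-associated genes sat low on the arrays, at median percentiles of 5.36 to 32.5 in cortex. Tiam1, an activator of the GTPase Rac at percentile 88.6, stood at 0.08 ± 0.0821 in cortex and -0.04 ± 0.0555 in hippocampus (SE). On the distal side, Scaf4, Hunk, Mis18a, Mrap, Urb1 and Eva1c ranged from -0.07 to 0.45 in cortex and from 0.10 to 0.39 in hippocampus, where Scaf4 and Urb1 were called. Over all genes limma called 0.114% in hippocampus, and 1 to 35 genes there with single animals left out. None was called in cortex, and the 95% intervals of Mrap and Eva1c included 0 in both regions. Mrap and Eva1c also sat low on the arrays, at median percentiles of 33.7 and 32.7 in cortex, as did the proximal Gm10789 at 31.4. Scaf4, which acts in transcription termination, stood at 0.24 ± 0.0576 in cortex (limma adjusted p = 0.972) and rose by 0.36 ± 0.0568 in hippocampus (SE; limma adjusted p = 0.0462). Urb1, of ribosome biogenesis, stood at 0.37 ± 0.104 in cortex (limma adjusted p = 1) and rose by 0.37 ± 0.0542 in hippocampus (SE; limma adjusted p = 0.0374). Without animals 60 and 64 the differences were 0.29 and 0.32 for Scaf4 and 0.38 and 0.33 for Urb1 in cortex and hippocampus. Sod1 had the highest value of these 13 genes in both regions. The difference between Sod1 and its neighbours was not tested.

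**Figure D4:**
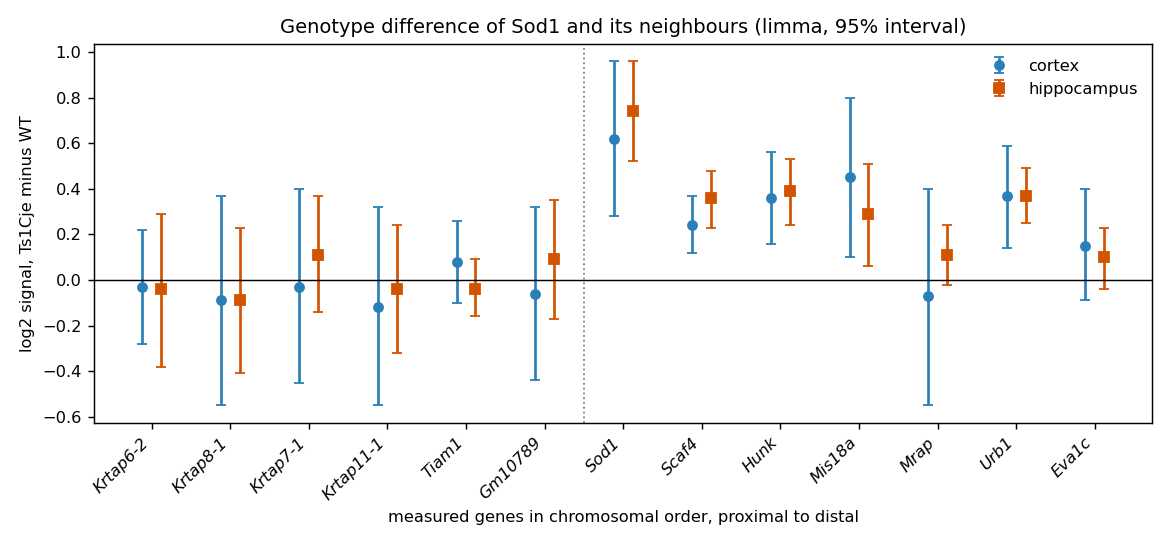
Log2 signal difference, Ts1Cje minus WT, of Sod1 and its 6 nearest measured genes on either side, in chromosomal order and not to distance, with limma estimates and 95% confidence intervals for cortex (blue circles) and hippocampus (orange squares). The dotted line separates the proximal genes, at -0.12 to 0.11, from Sod1 at 0.62 and 0.74 and the distal genes at -0.07 to 0.45.

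The genes whose signal followed Sod1 most closely were ranked by the lower of 2 Pearson correlations, over the 11 cortex and over the 11 hippocampus arrays. They were Smim11 (0.849), Dnah11 (0.837), Vmn1r30 (0.817), Psmg1 (0.772) and Dyrk1a (0.766). Smim11, Psmg1 and Dyrk1a lie on chromosome 16, Dnah11 on chromosome 12 and Vmn1r30 on chromosome 6. These values are a description, since all arrays share the genotype difference and the raised Sod1 signals of animals 60 and 64. The named genes were picked as the highest of all genes, so any other gene ranks lower by construction. The correlations of the 5 other members with Sod1 were 0.453 in cortex and 0.181 in hippocampus for Ccs and -0.73 and -0.356 for Sod2. They were 0.574 and -0.31 for Sod3, -0.12 and -0.231 for Cat, and 0.126 and -0.394 for Gpx1. Over the 9 animals other than 60 and 64 they lay between -0.534 (Sod2 in cortex) and 0.568 (Gpx1 in cortex).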

How the data were processed

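RNA of cortex and hippocampus was extracted with a different kit for each region, per the labels' protocols, and hybridised to 1 array per animal and region. The log2 values were deposited by the authors after robust multi-array averaging (RMA), per the submitters' processing notes; no source used here gives its version or probe definition. At 8 decimals, 9161 features shared a value between cortex arrays, 11023 between hippocampus arrays and 0 across regions, so the regions appear to have been summarised separately. The planned comparison of levels between hippocampus and cortex was therefore not run. Of 21225 features, 986 had no symbol and 20239 were tested.

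Genotypes were compared within each region and on the mean of both regions per animal with limma 3.58.1 in R 4.3.3. Their effects, hippocampus minus cortex, were compared in a limma fit of all 22 arrays in 4 groups, without the pairing by animal. Benjamini-Hochberg adjustment was over all 20239 genes, with a threshold of 0.05. The limma code was tested on simulated data. Sod1 minus partner values were compared by exact two-sided permutation tests over animals, adjusted over 10 tests. Arrays of an animal are paired by its number in both regions (median correlation of deviations 0.265, from 0.052 to 0.761). The groups are separate littermates, and their number limits the precision. Animal numbers came from sample titles; for WT animal 60 the description gives 61. Sequences are from RefSeq (GRCm38.p6). Python 3.11.15 with pandas 2.3.3, numpy 2.4.6 and matplotlib 3.10.9 made tables and figures.

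The members and gene lists (6 pathway and 9 marker lists, 162 of 179 genes measured) were chosen with earlier results of these data known. Named were the 6 members, the first 3 genes of each pathway list, the 6 nearest measured genes on each side of Sod1 and the 5 genes most like it. Alternatives were array weights, a trended robust prior, other normalizations, a filter on the 6746 dimmest genes, all features, all 22 arrays, the animal as a block, the series of animal numbers (under or over 70) and each animal left out. Leaving out animals 60 and 64 together was chosen after seeing the data.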

Additional observations from a re-analysis of the deposited data

Results flagged for a closer look

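Of 24 groups of 5 or 6 animals (6 genes, 2 regions, 2 genotypes), 9 held an animal at the edge whose gap to the next was large against the range of the group by Dixon's criterion, which chance meets in about 1 of 20 groups. Ts1Cje animal 64 was highest for Sod1, at 12.57 in cortex (others 12.04 to 12.17) and 12.12 in hippocampus (others 11.76 to 11.84). It was lowest for Sod2, at 11.26 in cortex (others 11.40 to 11.47) and 10.59 in hippocampus (others 10.87 to 10.92). WT animal 60 was highest for Sod1, at 12.18 in cortex (others 11.28 to 11.50) and 11.52 in hippocampus (others 10.97 to 11.06). It was also highest for Ccs, at 7.80 in cortex (others 7.33 to 7.38) and 7.18 in hippocampus (others 6.82 to 6.90). WT animal 95 was lowest for Sod2 in hippocampus at 10.82 (others 10.87 to 10.89). The other 8 values came from animals 60 and 64, whose arrays had a lower spread over genes (SD 1.86 to 1.95 in cortex and 1.98 to 2.06 in hippocampus) than the rest (2.17 to 2.22 and 2.14 to 2.19). The cause was not tested.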

How the results depend on the processing

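Sod1 stayed positive in every alternative run. In cortex it ran from 0.61 to 0.70 and was called in 3 of 10 alternatives, namely with array weights (0.69, limma adjusted p = 9.3e-05), without animals 60 and 64 (0.70) and over all 22 arrays with animal as random replicate block (0.62, against adjusted p = 0.117 without the block); 1 member was then called instead of 0. In hippocampus it ran from 0.70 to 0.79 and was called in 10 of 10. Its mean over regions was called with array weights and without animals 60 and 64 (0.74 in each, 1 member called instead of 0). The Sod1 excess over Cat in cortex passed the threshold after quantile normalization (0.56, exact adjusted p = 0.0325) and without animals 60 and 64 (0.57). With the animal as a replicate block, random or fixed, the regional difference of Sod1 was 0.12 (limma adjusted p of 0.941 and 0.909), and the block changed no other call of a member. Within animal numbers under and over 70, Sod1 differed by 0.64 and 0.64 in cortex and 0.72 and 0.79 in hippocampus.

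Leaving out each animal gave 0.55 to 0.78 for Sod1 in cortex, 0.69 to 0.84 in hippocampus and 0.62 to 0.81 for the mean, with 0 to 1 member called in hippocampus and for the mean. The Sod1 excess in cortex was then 0.55 to 0.84 over Sod2, 0.43 to 0.65 over Sod3, 0.35 to 0.71 over Cat (past the threshold only without animal 60) and 0.42 to 0.70 over Gpx1.

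Uncalled values near 0 changed sign. Ccs was 0.07 in cortex, 0.00 in hippocampus and 0.03 for the mean with array weights, and 0.04, 0.00 and 0.02 without animals 60 and 64; its regional difference was 0.02 after quantile normalization and 0.01 after centring. Sod2 in hippocampus was 0.01 with array weights and 0.02 without animals 60 and 64, and Cat in hippocampus was -0.02 with the number series as covariate. With single animals left out, Ccs was -0.05 to 0.06 in cortex, -0.07 to 0.02 in hippocampus, -0.05 to 0.04 for the mean and -0.04 to 0.01 for the regional difference. Sod2 was -0.05 to 0.02 in hippocampus, -0.05 to 0.00 for the mean and -0.01 to 0.03 for the regional difference, Cat -0.03 to 0.07 in hippocampus, and Gpx1 -0.01 to 0.05 for the mean.

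Over all genes, 1 was called in cortex and 3 with a trended robust prior or without the dimmest genes, 13 after quantile normalization, 50 with array weights, 32 without animals 60 and 64, 23 over all 22 arrays with or without the block, and 1 to 7 with single animals left out. In hippocampus 23 were called, 54 with array weights, 37 without animals 60 and 64 and 1 to 35 with single animals left out. For the mean 12 were called, 20 with a trended robust prior, 27 without the dimmest genes, 30 after quantile normalization, 68 with array weights, 52 without animals 60 and 64 and 1 to 33 with single animals left out. The causes were not tested.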

Other observations

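These 3 genes of the pathway lists were chosen after their values were seen, and none was called by limma (adjusted p = 1 for each). Pex14, which docks the peroxisomal import receptor, had signals of 8.08 to 8.19 in Ts1Cje and 8.20 to 8.33 in WT hippocampus, every Ts1Cje value being lower, as in 0.257% of all genes. Keap1, the inhibitor of NRF2, read 7.57 to 7.71 in Ts1Cje and 7.68 to 7.79 in WT hippocampus, with 5 of 6 Ts1Cje animals below all WT animals. Txn1, the cytosolic thioredoxin, read 12.69 to 12.92 in Ts1Cje and 12.59 to 12.69 in WT cortex, with 5 of 6 Ts1Cje animals above all WT animals. How many of all genes had 5 of 6 Ts1Cje animals apart in this way was not counted.

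Over the 9 animals other than 60 and 64, the genes most like Sod1 by the lower of the cortex and hippocampus correlations were Dnah11 (0.980), Synj1 (0.975), Vps26c (0.959), Dyrk1a (0.953) and Dop1b (0.943). Dnah11 lies on chromosome 12 and the others on chromosome 16. Dnah11, an axonemal dynein gene, rose by 2.88 ± 0.136 in cortex (SE; limma adjusted p = 3.24e-06) and 3.12 ± 0.0765 in hippocampus (SE; limma adjusted p = 9.25e-10).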
